A study of Homo sapiens with 29 samples.

Results

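Prostaglandins are lipid mediators made from arachidonic acid, and 10 genes of their synthesis, reception and removal were followed here in human fibroblasts made senescent by oncogenic RAS and depleted of the chromatin remodeller SMARCA4. The members were fixed by name: PLA2G4A, PTGS1, PTGS2, PTGES, PTGES2, PTGIS, PTGER2, PTGER4, PTGFR and HPGD, which are 10 of the 28266 gene symbols in the count table, and each was found there under its own symbol. Of these, 8 passed the filter on low counts and were tested, and PTGIS and HPGD did not pass.

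RNA was sequenced from IMR90 ER:RAS cells, an established human lung fibroblast line infected with a retroviral vector that encodes oncogenic RAS (RASG12V) fused to the estrogen receptor. The fusion is inactive until 4-hydroxytamoxifen (4OHT) is added, and the cells then enter oncogene-induced senescence, a stable arrest accompanied by secretion of inflammatory factors. By the labels, the cells of all 3 groups carried the vector, were transfected with siRNA before treatment and were collected on day 7, with 6 libraries each, although the RNA of 1 DMSO_siNT library went against this, as given with the depth of the libraries. DMSO_siNT cells received the solvent and non-targeting siRNA and were the growing controls. 4OHT_siNT cells received 4OHT and non-targeting siRNA, and 4OHT_siSMARCA4 cells received 4OHT and siRNA against SMARCA4, a catalytic ATPase of SWI/SNF (BAF) complexes. In each group 3 libraries came from the siRNA numbered 2 and 3 from the siRNA numbered 4. A siRNA against SMARCA4 is a different siRNA from the non-targeting siRNA of the same number. The labels do not say why they share it. Each library is also named by a set, a number followed by V or VM, whose meaning the labels do not give. The 4OHT_siNT libraries were all of VM sets, and DMSO_siNT and 4OHT_siSMARCA4 each held 3 V and 3 VM libraries. Comparisons with 4OHT_siNT are therefore not balanced for set type. One of the VM libraries, 4OHT_siSMARCA4 2-1VM, is named so in the count table only and matched no sample title. It was left out wherever VM sets alone were compared unless its addition is stated. The labels do not say whether the libraries of a group came from separate cultures, so the p-values measure the spread between these libraries, which may be technical. Bulk RNA cannot tell a change in RNA per cell from a change in the share of cells that make it.

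The route starts when a phospholipase such as the cytosolic enzyme encoded by PLA2G4A frees arachidonic acid from membranes. A cyclooxygenase, COX-1 from PTGS1 or COX-2 from PTGS2, turns it into prostaglandin H2, and terminal synthases turn that into prostaglandin E2 (PTGES, PTGES2) or prostacyclin (PTGIS). Prostaglandin E2 acts on receptors that include EP2 (PTGER2) and EP4 (PTGER4), which raise cyclic AMP, the FP receptor (PTGFR) binds prostaglandin F2alpha, and HPGD inactivates prostaglandins. In fibroblasts COX-1 is usually made at a steady level, whereas COX-2 is known as an enzyme induced by growth factors and cytokines and as part of the senescence-associated secretory programme.

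The start regions of 4 members are shown: both cyclooxygenase genes, which moved in opposite directions in the data that follow, the terminal synthase PTGES, which rose, and the receptor gene PTGER2, which fell. They were chosen after the values were seen. The sequences are from RefSeq on GRCh38.p14 and run from 250 bases before to 50 bases after the annotated start, on the gene's own strand. Positions are counted from this RefSeq start. For PTGS2 it lies 499 bases inside the GENCODE gene, and for PTGES, PTGS1 and PTGER2 it lies 0, 3 and 7 bases from the GENCODE start. Capitals mark matches on either strand to any of 5 motifs: TATAAA (a core promoter element), TGACG (the core of a cyclic AMP response element), an NF-kB type site (GGG and CC around any 2 bases, a T and any 2 further bases), TTNCGCAA (a C/EBP type site) and GGGCGG (GC box). The windows are chr1:186680374-186680673 on the minus strand for PTGS2, chr9:129752993-129753292 on the minus strand for PTGES, chr9:122370283-122370582 on the plus strand for PTGS1 and chr14:52314062-52314361 on the plus strand for PTGER2.
PTGS2: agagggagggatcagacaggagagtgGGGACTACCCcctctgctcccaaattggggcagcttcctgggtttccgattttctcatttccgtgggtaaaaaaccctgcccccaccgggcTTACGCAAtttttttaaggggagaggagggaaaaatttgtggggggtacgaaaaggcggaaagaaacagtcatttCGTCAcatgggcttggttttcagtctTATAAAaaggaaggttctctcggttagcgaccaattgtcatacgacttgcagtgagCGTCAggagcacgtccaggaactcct
PTGES: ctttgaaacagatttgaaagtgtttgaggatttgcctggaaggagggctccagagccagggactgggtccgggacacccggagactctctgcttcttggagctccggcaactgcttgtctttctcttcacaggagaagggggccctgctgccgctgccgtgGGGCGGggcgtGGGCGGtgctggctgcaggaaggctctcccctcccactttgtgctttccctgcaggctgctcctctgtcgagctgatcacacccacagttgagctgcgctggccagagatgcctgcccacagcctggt
PTGS1: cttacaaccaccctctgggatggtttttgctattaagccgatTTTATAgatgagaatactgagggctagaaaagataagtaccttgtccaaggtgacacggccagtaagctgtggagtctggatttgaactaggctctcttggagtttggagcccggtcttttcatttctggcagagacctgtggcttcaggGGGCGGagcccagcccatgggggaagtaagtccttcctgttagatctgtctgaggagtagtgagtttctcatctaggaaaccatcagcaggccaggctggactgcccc
PTGER2: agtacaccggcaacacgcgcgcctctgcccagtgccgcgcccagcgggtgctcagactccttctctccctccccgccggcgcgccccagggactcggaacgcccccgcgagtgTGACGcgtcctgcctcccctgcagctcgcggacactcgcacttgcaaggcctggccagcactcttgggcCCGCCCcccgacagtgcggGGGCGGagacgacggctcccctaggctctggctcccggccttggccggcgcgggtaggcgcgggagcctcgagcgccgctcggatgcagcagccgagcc

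The PTGS2 window held matches to 4 of the 5 motifs, with TATAAA starting 32 bases before the annotated start, TTNCGCAA starting at -133, the NF-kB type site starting at -224 and TGACG on the reverse strand at -58 and again at 25 bases after the start. None of these matches overlapped another. Windows in RefSeq with TATAAA made up 11.5% of all 35116, those with TGACG 24.6%, those with the NF-kB type site 22.0%, those with TTNCGCAA 0.891% and those with GGGCGG 45.0%. The PTGES window held GGGCGG at -89 and -78 and no match to the other 4 motifs. The PTGS1 window held GGGCGG at -58 and, on the reverse strand, TATAAA at -208. The PTGER2 window held TGACG at -137 and GGGCGG at -68 and -49. The G and C content was 50.7% in the PTGS1 and PTGS2 windows, 61.7% in that of PTGES and 74.7% in that of PTGER2. A window was found for 9 of the 10 members. A match describes the letters of the window and was not tested for binding of any factor.

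Of the members, a single pair are neighbours in the genome (hg38, GENCODE 44). PTGS2 (chromosome 1, 186671791 to 186680922, minus strand) and PLA2G4A (chromosome 1, 186828949 to 186988981, plus strand) are transcribed away from each other, with 148 kb and 0 protein-coding genes between them. PTGES (129738331 to 129753042, minus strand), PTGES2 (128120693 to 128128462, minus strand) and PTGS1 (122370530 to 122395703, plus strand) all lie on chromosome 9 but far apart, with 40 protein-coding genes between the first pair and 71 between PTGES2 and PTGS1. PTGER2 (chromosome 14, 52314305 to 52328598, plus strand) lies 37.6 kb from PTGDR, which encodes a prostaglandin D2 receptor.

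Counts summed over all genes ranged from 9657309 to 18039313 per library. The siRNA lowered its target: SMARCA4 stood at 275 to 330 CPM (counts scaled to library size by TMM, the unit of level used throughout) in 4OHT_siNT and at 70.4 to 141 in 4OHT_siSMARCA4, a log2 difference of -1.61 ± 0.14 (SE, adjusted p = 1.3e-06). Within 4OHT_siSMARCA4 the V libraries held 92.7 to 141 CPM of SMARCA4 and the VM libraries, with 2-1VM among them, 70.4 to 87.0 CPM. The DMSO_siNT library of siRNA 4 in set 2V stood apart from the other 17 on the second principal component, had the lowest total and the most genes detected (17915), and went against its label in the RNA of the transgene: ESR1, which with HRAS shares sequence with the ER:RAS fusion, stood at 29.5 CPM there and at 1034 to 1316 CPM in the other 5 DMSO_siNT libraries, and HRAS at 436 and at 2165 to 2852 CPM. Without this library the same 7 and 6 members were called in senescence (4OHT_siNT against DMSO_siNT) and with SMARCA4 depletion (4OHT_siSMARCA4 against 4OHT_siNT), where 58.3% and 24.6% of all tested genes were then called, against 52.8% and 10.6% with it. In senescence the log2 differences were then 2.11 for PLA2G4A, -0.70 for PTGS1, 6.73 for PTGS2, 1.40 for PTGES, -3.36 for PTGER2, -1.10 for PTGER4 and -1.55 for PTGFR. Beside the epithelial and leukocyte lists the RNA bore out the fibroblast label. All 9 fibroblast markers fixed for the check were tested. In each group 4 of 6 epithelial markers and 3 or 4 of 5 leukocyte markers did not exceed 3 counts in a library. The endothelial list was not set apart in this way: 1, 0 and 1 of its 4 markers stayed at or under 3 counts in DMSO_siNT, 4OHT_siNT and 4OHT_siSMARCA4. The marker levels did move with the groups. The 6 epithelial markers had summed levels of 12.1 to 20.2 CPM in the controls, 7.10 to 8.36 CPM in senescent siNT cells and 5.57 to 7.73 CPM in depleted cells. In the same order the 4 endothelial markers summed to 1.35 to 2.39, 4.29 to 5.53 and 1.30 to 5.78 CPM, and the 5 leukocyte markers, nearly all CD68, summed to 45.0 to 59.3, 47.9 to 69.5 and 48.1 to 75.0 CPM. The endothelial sums of 4OHT_siNT lay above those of the controls, and VWF, the endothelial marker that was tested, was higher in senescence by 1.23 ± 0.28 (adjusted p = 0.0012). Of the 9 fibroblast markers, 5 were lower and 0 higher in 4OHT_siNT than in DMSO_siNT and 6 were lower and 0 higher in 4OHT_siSMARCA4 than in 4OHT_siNT, beside 28.9% and 5.65% of all tested genes lower, and their summed level was 11577 to 31733, 15197 to 20109 and 8782 to 12762 CPM in DMSO_siNT, 4OHT_siNT and 4OHT_siSMARCA4. The part of these markers in the results on prostaglandin genes was not tested.

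In senescence the prostaglandin genes moved in both directions. The genes for the release of arachidonic acid, for COX-2 and for the inducible prostaglandin E synthase were higher in 4OHT_siNT than in DMSO_siNT, the gene for COX-1 and the 3 receptor genes among the members were lower, and PTGES2 was not called. Of the 8 tested members, 3 were higher and 4 lower at an adjusted p under 0.05 (edgeR quasi-likelihood test, Benjamini-Hochberg over 13136 genes), where 23.9% of all tested genes were higher, 28.9% lower and 52.8% called in either direction. The groups did not overlap for 5 of the 8, with 2 higher and 3 lower, against 33.8% of all tested genes (17.0% higher and 16.8% lower). The median log2 difference was -0.19 over the 8 members and -0.05 over all tested genes.

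When SMARCA4 was depleted in senescent cells, 4 of the synthesis genes moved further, whereas PTGES2 was not called and PTGIS was too low to test. PTGS2, PTGES and PLA2G4A were higher again, PTGS1 fell below every other library, PTGER2 fell a little further and PTGFR regained part of its level. Of the 8 tested members, 4 were higher and 2 lower in 4OHT_siSMARCA4 than in 4OHT_siNT, in a comparison in which 4.99% of all tested genes were higher, 5.65% lower and 10.6% called in either direction. The groups did not overlap for 4 of the 8, with 3 higher and 1 lower, against 11.4% of all tested genes (5.12% higher and 6.27% lower). The median was 0.33 over the members and 0.01 over all tested genes. Between 4OHT_siSMARCA4 and DMSO_siNT, 3 members were higher and 4 lower, with 23.3% of all tested genes higher, 27.3% lower and 50.5% called. All 7 of these had no overlap, against 29.6% of all tested genes (14.3% higher and 15.3% lower). These 3 comparisons share their libraries, so the last is the sum of the first 2 and is not separate evidence.

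**Figure D1:**
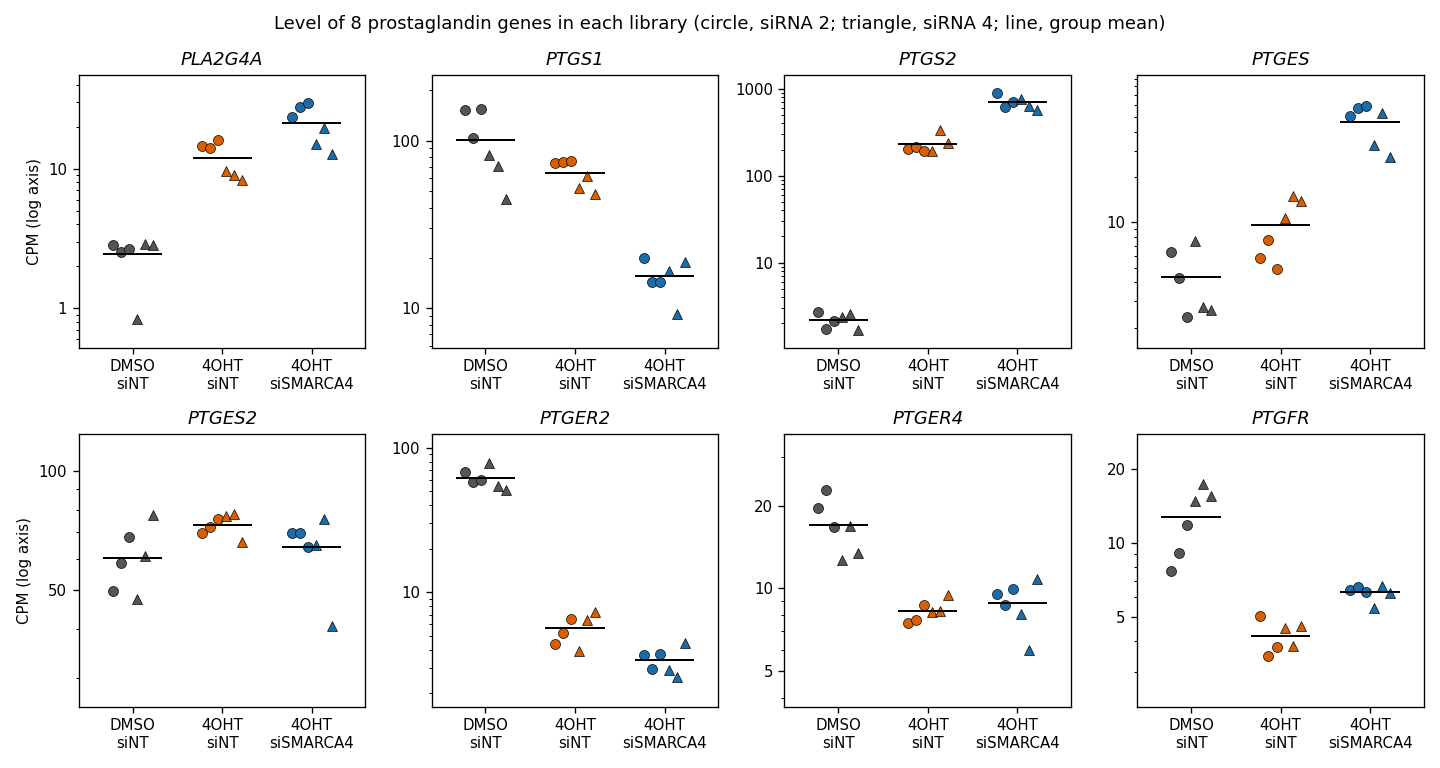
Each panel plots 1 gene, with the level in CPM on a log axis and the 3 groups along the horizontal axis. Points are single libraries (circles for siRNA 2, triangles for siRNA 4) and lines are group means (n = 6). PTGS2 rises in 2 steps with no overlap, PTGS1 is lowest in all 6 SMARCA4-depleted libraries, and PTGER2, PTGER4 and PTGFR are highest in the 6 DMSO_siNT libraries.

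Release of arachidonic acid came first in the route. The PLA2G4A level was 0.837 CPM in the lowest DMSO_siNT library, 2.74 at the median and 2.91 in the highest. In 4OHT_siNT the lowest, median and highest values were 8.28, 11.8 and 16.0 CPM, and in 4OHT_siSMARCA4 they were 12.7, 21.4 and 29.4 CPM. The senescent libraries did not overlap the controls, whereas the siNT and siSMARCA4 libraries overlapped each other. PLA2G4A was higher in 4OHT_siNT than in DMSO_siNT by 2.26 ± 0.26 (log2 fold change ± SE, adjusted p = 7.2e-07), a 4.78-fold difference. SMARCA4 depletion added 0.83 ± 0.24 (1.78-fold, adjusted p = 0.028). That smaller difference passed the test by little, and leaving out single libraries ended the call in 7 of 18 fits, those without 4OHT_siNT 4-1VM, 4-2VM or 4-3VM or without 4OHT_siSMARCA4 2-3V, 2-1VM, 2-3VM or 4-2VM, with values from 0.71 to 0.85. In both senescent groups the siRNA 4 libraries held lower levels than the siRNA 2 libraries, and edgeR called neither difference. With siRNA 4 the siNT libraries held 8.28 to 9.57 CPM and the depleted libraries 12.7 to 19.5 CPM. With siRNA 2 the siNT libraries held 14.05 to 16.04 CPM and the depleted ones 23.3 to 29.4 CPM. Within each number these 2 groups did not overlap. In DMSO_siNT the numbers overlapped, at 2.55 to 2.85 CPM with siRNA 2 and 0.837 to 2.91 CPM with siRNA 4.

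The 2 cyclooxygenases moved in opposite directions. PTGS2, the gene for COX-2, was nearly silent in the controls, with 20 to 38 counts per library and a lowest, median and highest level of 1.67, 2.27 and 2.71 CPM. In 4OHT_siNT it stood at 190, 209 and 339 CPM and in 4OHT_siSMARCA4 576, 666 and 906 CPM. No library of one group reached the range of another. Senescence raised PTGS2 by 6.71 ± 0.20 on the log2 scale (104-fold, adjusted p = 6.1e-15) and SMARCA4 depletion raised it by a further 1.61 ± 0.15 (3.04-fold, adjusted p = 4.1e-06), which placed the depleted cells 318-fold above the controls. PACERR, a noncoding RNA read from the opposite strand over the PTGS2 start, gathered 25 counts over all 18 libraries, and whether the counting used strand is not given in the sources used here.

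PTGS1, the gene for COX-1, varied widely among the controls, at 44.8 CPM in the lowest, 92.9 at the median and 155 in the highest library. Its values in 4OHT_siNT were 48.1, 67.4 and 75.5 CPM and those in 4OHT_siSMARCA4 were 9.33, 15.5 and 20.1 CPM. Within 4OHT_siSMARCA4 the V libraries held 16.7 to 20.1 CPM and the VM libraries, with 2-1VM among them, 9.33 to 14.4 CPM. The controls and the senescent siNT libraries overlapped, and the depleted libraries lay below all others. The fall in senescence was small, -0.66 ± 0.25 on the log2 scale (1.58-fold lower, adjusted p = 0.031). It was not called in 7 of 13 alternative fits to all or part of the libraries. The call was lost among VM sets alone (-0.48, adjusted p = 0.15; -0.49 with 4OHT_siSMARCA4 2-1VM added), with siRNA 4 alone (-0.25, adjusted p = 0.50) and, with DMSO_siNT 4-2V left out as well, at a value near 0 (-0.084, adjusted p = 0.81), with the set as a block (-0.31, and -0.34 without DMSO_siNT 4-2V), with the 2 compared groups fitted by themselves (-0.64, adjusted p = 0.059) and without any 1 of DMSO_siNT 2-1V or 2-2VM or 4OHT_siNT 4-1VM, 4-2VM or 4-3VM (-0.63 to -0.49). The fall with SMARCA4 depletion was -2.04 ± 0.26 (4.11-fold lower, adjusted p = 7.6e-05) and was called in all 18 fits that left out 1 library, with values from -2.12 to -1.94. Against DMSO_siNT the depleted cells were lower by -2.70 ± 0.26 (6.49-fold, adjusted p = 5.6e-08).

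Per length of transcript, the balance between the cyclooxygenases reversed. Levels were divided by the length of the canonical transcript, 5020 bases for PTGS1 and 4510 for PTGS2, and the share of PTGS2 in the sum of both is a description with no test. PTGS2 made up 2.71% ± 1.08 (SD, n = 6) of cyclooxygenase RNA in DMSO_siNT, 79.4% ± 5.12 in 4OHT_siNT and 98.0% ± 0.4998 in 4OHT_siSMARCA4. The lowest and highest libraries were 1.52% and 4.00%, 73.7% and 86.0%, and 97.2% and 98.7%, so the groups did not overlap. The sum of both genes was 20.7 ± 8.90, 63.8 ± 12.1 and 158 ± 27.1 CPM per kb in the same order.

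**Figure D2:**
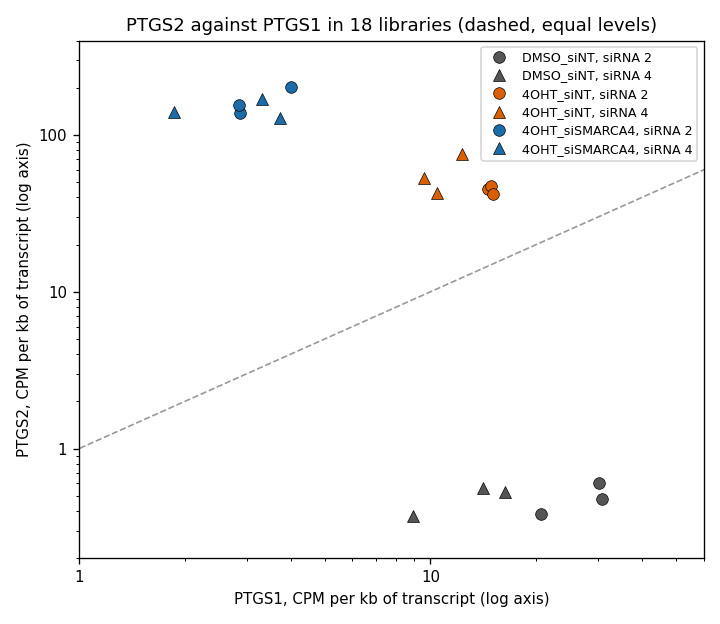
PTGS1 (horizontal) and PTGS2 (vertical) in CPM per kb of transcript, both on log axes, with 1 point per library and a dashed line where both levels are equal. The DMSO_siNT libraries lie below the line, the 4OHT_siNT libraries above it, and the 4OHT_siSMARCA4 libraries furthest to the upper left.

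The 2 terminal synthases of prostaglandin E2 among the members behaved differently from each other. PTGES, the gene for the inducible microsomal enzyme, stood at 2.36 CPM in the lowest control, 3.52 at the median and 7.53 in the highest. It stood at 4.88, 9.19 and 14.9 CPM in 4OHT_siNT and at 27.1, 51.9 and 59.7 CPM in 4OHT_siSMARCA4. Every depleted library lay above every other library, whereas the control and senescent siNT libraries overlapped. PTGES was higher in senescence by 1.18 ± 0.33 (2.27-fold, adjusted p = 0.0054) and higher again with SMARCA4 depletion by 2.28 ± 0.31 (4.85-fold, adjusted p = 0.00016).

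The overlap of PTGES between controls and senescent cells lay between the V controls and the senescent libraries of siRNA 2. Among VM sets the 3 controls held 2.36 to 2.76 CPM and the 6 senescent libraries 4.88 to 14.9 CPM, with no overlap and a log2 difference of 1.90 (adjusted p = 0.00029), and the 3 V controls held 4.28 to 7.53 CPM. The highest V control was DMSO_siNT 4-2V, the library that went against its label, and the next was 2-1V at 6.34 CPM. The senescent libraries of siRNA 2 held 4.88 to 7.61 CPM and those of siRNA 4 held 10.8 to 14.9 CPM, above every control. No V library of 4OHT_siNT was present, so a comparison within V sets could not be made. With siRNA 2 alone the difference in senescence was 0.51 and was not called (adjusted p = 0.13), and with siRNA 4 alone it was 1.68 (adjusted p = 0.013). The siRNA 4 fit includes DMSO_siNT 4-2V, beside which the other siRNA 4 controls held 2.76 and 2.62 CPM.

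PTGES2, the gene for a second, widely expressed enzyme of this step, showed no called difference. Its lowest, median and highest levels were 47.6, 59.8 and 77.4 CPM in DMSO_siNT, 66.2, 74.0 and 77.8 in 4OHT_siNT and 40.7, 67.4 and 75.6 in 4OHT_siSMARCA4. All 3 ranges overlapped. The 95% interval of the log2 difference ran from -0.01 to 0.56 for senescence (0.27, adjusted p = 0.096) and from -0.47 to 0.10 for SMARCA4 depletion (-0.19, adjusted p = 0.43). The value for senescence was called without DMSO_siNT 4-3VM (0.37), without 4OHT_siSMARCA4 4-3V (0.28) and with siRNA 2 alone (0.31).

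PTGIS, the prostacyclin synthase gene, gave few counts and was not tested with the other members. Counts in the 6 controls were 26, 4, 4, 7, 3 and 6, those in 4OHT_siNT were 0 in 5 libraries and 1 in the other, and those in 4OHT_siSMARCA4 were 0 in 5 libraries and 2 in the other. Over pooled counts and totals the controls were 56.6 times 4OHT_siNT, with an exact 95% counting interval of 9.71 to 2281, and 26.5 times 4OHT_siSMARCA4 (6.96 to 225). The control library with 26 counts held 26 of the 50 control counts, and without it the first ratio was 33.1 (5.40 to 1363). These intervals cover counting error only. With every gene of at least 1 count in the fit, PTGIS was called lower in 4OHT_siNT than in DMSO_siNT (adjusted p = 0.00011).

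**Figure D3:**
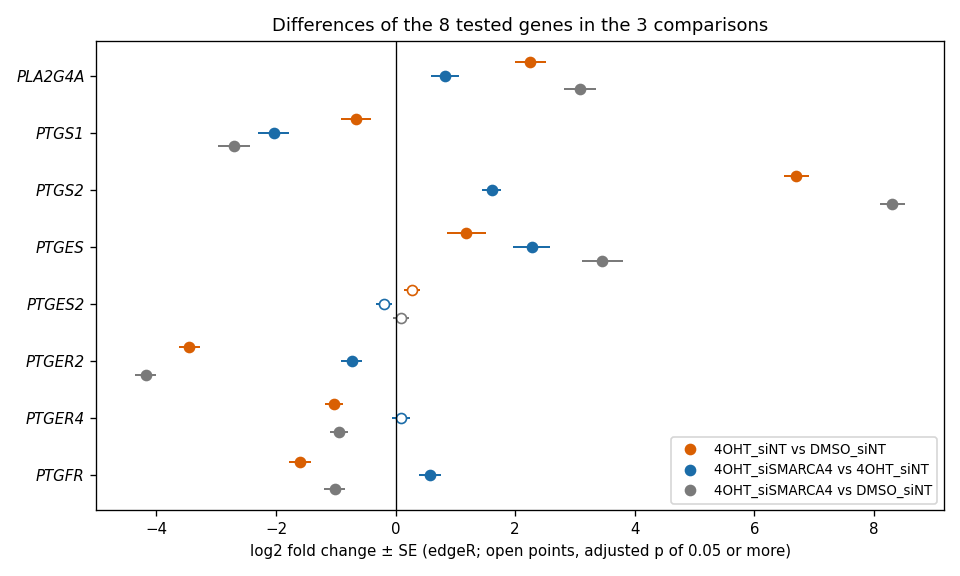
Horizontal position is the log2 fold change of each of the 8 tested genes in 3 comparisons, with bars of 1 SE (edgeR, 6 against 6 libraries) and open points where the adjusted p was 0.05 or more. PTGS2, PTGES and PLA2G4A lie to the right of 0 in all 3 comparisons and PTGS1 and PTGER2 to the left, and PTGES2 has open points in all 3.

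All 3 receptor genes among the members fell in senescence. PTGER2, the gene for EP2, had lowest, median and highest levels of 51.3, 58.9 and 78.3 CPM in the controls, against 3.93, 5.80 and 7.34 in 4OHT_siNT and 2.59, 3.33 and 4.45 in 4OHT_siSMARCA4. The controls stood about an order of magnitude above both senescent groups, which overlapped each other. The fall in senescence was -3.45 ± 0.17 (10.9-fold lower, adjusted p = 4.9e-12). SMARCA4 depletion lowered it further, by a log2 difference of -0.74 ± 0.17 (1.66-fold lower, adjusted p = 0.0094). That second difference was not called with siRNA 4 alone (-0.85, adjusted p = 0.37), nor with siRNA 4 alone and the DMSO_siNT library of set 2V left out (-0.84, adjusted p = 0.068).

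PTGER4, the gene for EP4, had a lowest, median and highest control level of 12.7, 16.8 and 22.8 CPM. It stood at 7.50, 8.25 and 9.45 CPM in 4OHT_siNT and at 5.96, 9.11 and 10.8 CPM in 4OHT_siSMARCA4. The controls lay above both senescent groups, and those 2 overlapped. Senescence lowered PTGER4 by -1.04 ± 0.15 (2.05-fold, adjusted p = 1.2e-05), and the difference with SMARCA4 depletion was 0.09, with a 95% interval from -0.23 to 0.41 (adjusted p = 0.78). The gene TTC33 overlaps PTGER4 on the opposite strand, and its own level was 11.9 ± 2.71, 11.1 ± 1.40 and 12.1 ± 1.38 CPM in the 3 groups, with a log2 difference of -0.11 in senescence (adjusted p = 0.53).

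PTGFR, the gene for the prostaglandin F receptor, was the receptor gene that rose with SMARCA4 depletion. Its lowest, median and highest levels were 7.70, 13.3 and 17.4 CPM in the controls, 3.46, 4.17 and 5.02 in 4OHT_siNT and 5.44, 6.38 and 6.66 in 4OHT_siSMARCA4. None of the 3 ranges overlapped. The fall in senescence was -1.60 ± 0.18 (3.02-fold lower, adjusted p = 3.8e-07). The rise with depletion was 0.58 ± 0.18 (1.495-fold, adjusted p = 0.044), just inside the threshold, and 12 of the 18 fits that left out 1 library lost the call with values from 0.52 to 0.63. Only the fits without any 1 of DMSO_siNT 2-1V, 2-2V, 4-2V, 4-2VM or 4-3VM or 4OHT_siSMARCA4 4-2V kept it.

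HPGD, the gene for the enzyme that inactivates prostaglandins, gave 1 count in all 18 libraries, in a 4OHT_siSMARCA4 library. A count of 0 over all 6 DMSO_siNT libraries allows a level of up to 0.0404 CPM (3 counts), and one over the 6 of 4OHT_siNT up to 0.0356 CPM. No difference in HPGD was detectable at this depth.

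The order of the members by level per length changed with the groups. In DMSO_siNT the order was PTGES2 (37.8 ± 7.01 CPM per kb), PTGER2 (25.0 ± 4.02), PTGS1 (20.2 ± 8.86), PTGER4 (4.96 ± 1.10), PTGES (2.46 ± 1.24), PTGFR (2.35 ± 0.707), PLA2G4A (0.847 ± 0.277), PTGS2 (0.487 ± 0.0945) and PTGIS (0.119 ± 0.112), with HPGD at 0. The ranges of neighbours overlapped for the first 3 genes, for PTGER4, PTGES and PTGFR, and for PLA2G4A with PTGS2. In 4OHT_siNT, PTGS2 (50.97 ± 12.5) overlapped PTGES2 (45.8 ± 2.85) at the top, and PTGS1 (12.8 ± 2.40), PTGES (5.50 ± 2.39), PLA2G4A (4.14 ± 1.16), PTGER4 (2.42 ± 0.207), PTGER2 (2.29 ± 0.549) and PTGFR (0.774 ± 0.111) followed, where PTGES overlapped PLA2G4A and PTGER4 overlapped PTGER2. In 4OHT_siSMARCA4, PTGS2 (155 ± 26.7) stood clear of all others, PTGES2 (40.2 ± 7.64) overlapped PTGES (26.7 ± 7.78), PLA2G4A (7.39 ± 2.33) came next, and PTGS1 (3.11 ± 0.766), PTGER4 (2.57 ± 0.495), PTGER2 (1.38 ± 0.281) and PTGFR (1.16 ± 0.0819) followed with each overlapping the next. The 2 members for the same step, PTGES and PTGES2, shifted towards PTGES, which made up 6.55% ± 4.08, 10.6% ± 4.22 and 39.4% ± 4.97 of their sum in the 3 groups. With the longest annotated transcript of each gene, 3473 bases in place of 1598 for PTGES2, these shares were 12.3%, 19.2% and 56.9%. The sum leaves out PTGES3, by name a prostaglandin E synthase gene, from the list of other synthases. PTGES3 stood at 275 ± 57.6, 238 ± 31.8 and 293 ± 26.6 CPM, not divided by length, and was not called in any comparison.

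Each siRNA against SMARCA4 was also compared with the non-targeting siRNA of the same number, to see whether the effects of depletion held with both. Each such difference depends on both of the siRNAs compared. A fit with siRNA number as part of the group (3 libraries each, 13659 genes tested) called 7.67% of tested genes between siSMARCA4 and siNT for siRNA 2 and 2.71% for siRNA 4. PTGS2 was higher with both, by 1.87 ± 0.21 (adjusted p = 6.5e-05) and 1.34 ± 0.21 (adjusted p = 0.0034). PTGS1 was lower with both, by -2.19 ± 0.25 (adjusted p = 7.8e-05) and -1.87 ± 0.25 (adjusted p = 0.0013). PTGES was higher by 3.20 ± 0.37 (adjusted p = 8.2e-05) and by 1.49 ± 0.35 (adjusted p = 0.030).

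The difference of these PTGES values, 1.70 ± 0.49 with a 95% interval from 0.66 to 2.75, did not pass the test over all genes (p = 0.0032, adjusted p = 0.38), in which 0.0146% of tested genes were called. Behind it the depleted libraries held 50.9 to 59.7 CPM with siRNA 2 and 27.1 to 52.9 CPM with siRNA 4, beside the siNT levels given above. With siRNA 4 the V libraries held 27.1 and 32.4 CPM and the VM library 52.9 CPM. With siRNA 2 the V library held 50.9 CPM and the VM libraries 57.4 and 59.7 CPM. The siRNA numbers were thus not balanced for set type, and the part of each was not tested. The rise of PTGFR and PLA2G4A was called with siRNA 2 (0.66, adjusted p = 0.043, and 0.85, adjusted p = 0.038) and not with siRNA 4 (0.48, adjusted p = 0.19, and 0.80, adjusted p = 0.086), and the test of the difference was called for neither (adjusted p = 0.97 and 1.00). PTGER2 was called with neither siRNA on its own, at -0.63 (adjusted p = 0.16) with siRNA 2 and -0.85 (adjusted p = 0.082) with siRNA 4.

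**Figure D4:**
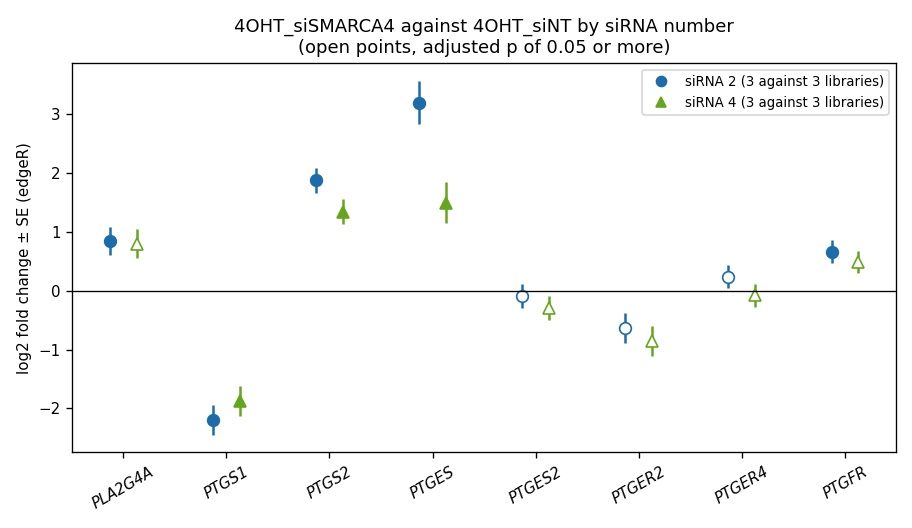
Log2 fold change of each tested member between 4OHT_siSMARCA4 and 4OHT_siNT, with bars of 1 SE, separately for siRNA 2 (circles) and siRNA 4 (triangles), 3 against 3 libraries each. PTGS2, PTGES and PTGS1 have filled points, called at an adjusted p under 0.05, with both siRNAs.

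Among the controls some members differed in level between libraries of the 2 non-targeting siRNAs. The siRNA 2 controls were of sets 1V, 2V and 2VM and the siRNA 4 controls of sets 2V, 2VM and 3VM. The latter include DMSO_siNT 4-2V, as do all fits of this paragraph, so siRNA, set and library cannot be told apart. PTGS1 held 104 to 155 CPM with siRNA 2 and 44.8 to 82.1 CPM with siRNA 4 in DMSO_siNT, with no overlap. PTGFR held 7.70 to 11.9 CPM and 14.8 to 17.4 CPM, again with no overlap and in the opposite direction. Neither passed the edgeR test over all genes (both adjusted p = 0.063), in which 0.0512% of tested genes were called, whereas DESeq2, which called 13.3% of tested genes here, called both (adjusted p = 0.0059 and 0.0050). Between siRNA 2 and siRNA 4 edgeR called 0 members in any of the 3 groups, with 3, 2 and 1 at an unadjusted p under 0.05 and 2, 1 and 1 called by DESeq2 in DMSO_siNT, 4OHT_siNT and 4OHT_siSMARCA4, where edgeR called 0.0732% and 0.00732% of tested genes in the last 2 and DESeq2 1.49% and 0.373%. In senescence PTGES was higher by 1.69 with siRNA 4 (adjusted p = 0.0018) and by 0.51 with siRNA 2 (adjusted p = 0.32), and PTGS1 was lower by -0.86 with siRNA 2 (adjusted p = 0.0092) and by -0.27 with siRNA 4 (adjusted p = 0.36), where 37.2% of tested genes were called with siRNA 2 and 52.1% with siRNA 4. The test of the difference was called for neither (adjusted p = 0.20 and 0.29), and edgeR called 0.00% of tested genes in it, with 3258 genes at an unadjusted p under 0.05 and 805 genes (5.89%) and 0 members called by DESeq2.

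Other genes of the route were taken from 7 lists of 52 genes, of which 39 were tested. In senescence 12 were higher and 6 lower (46.2% of those tested, against 52.8% of all tested genes), with a median log2 difference of 0.16 beside -0.05 over all tested genes. With SMARCA4 depletion 4 were higher and 4 lower (20.5%, against 10.6%), with medians of 0.01 both over the lists and over all tested genes. The counts of each list stand against 23.9% of all tested genes higher and 28.9% lower in senescence and 4.99% higher and 5.65% lower with depletion. The lists and members were chosen with earlier results of these data known.

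Of 9 other phospholipase and lipase genes, 5 were tested, and 1 was higher and 1 lower in senescence (median 0.16) and 1 higher with depletion (median 0.08). PLA2G4C, which encodes another cytosolic phospholipase of the PLA2G4A family, was higher in both comparisons, by 0.67 ± 0.16 (adjusted p = 0.0017) and 0.58 ± 0.16 (adjusted p = 0.022). PLAAT3 was lower in senescence by -1.16 ± 0.30 (adjusted p = 0.0033). All 4 genes of arachidonate activation and reacylation were tested, with 2 higher and 1 lower in senescence (median 0.18) and 1 higher with depletion (median 0.08). ACSL4, which activates arachidonic acid for return to phospholipids, was at 148 ± 37.3, 193 ± 29.2 and 397 ± 49.9 CPM and rose with depletion by 1.04 ± 0.15 (adjusted p = 0.00022).

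Of 8 other prostanoid synthase and reductase genes 7 were tested. In senescence 2 were higher and 1 lower (median 0.24), and with depletion 1 was higher and 0 lower (median -0.13). AKR1B1, an aldose reductase with prostaglandin F synthase activity, was at 234 ± 44.3, 859 ± 65.3 and 1579 ± 389 CPM, a rise of 1.88 ± 0.16 in senescence (adjusted p = 1.3e-08) and of 0.88 ± 0.16 with depletion (adjusted p = 0.0015). AKR1C3, which also acts on prostaglandins, fell by 3.97 on the log2 scale in senescence (SE 0.38, adjusted p = 4.7e-08), from 227 counts over the controls to 16 over 4OHT_siNT. TBXAS1, the thromboxane synthase gene, rose by 1.14 ± 0.14 in senescence (adjusted p = 1.5e-06).

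Of 9 other prostanoid receptor genes, a list that also holds PPARG, PPARD and PTGFRN, 7 were tested, with 1 higher and 2 lower in senescence (median 0.04) and 2 lower with depletion (median -0.48). PTGIR, the prostacyclin receptor gene, was at 3.13 ± 0.852 CPM in the controls, rose to 7.18 ± 1.75 in 4OHT_siNT (1.18 ± 0.27, adjusted p = 0.0010) and fell to 3.32 ± 1.58 with depletion (-1.10 ± 0.26, adjusted p = 0.011). PPARG, a nuclear receptor that binds prostaglandin metabolites, fell in senescence by 2.84 on the log2 scale (SE 0.19, adjusted p = 3.4e-10). TBXA2R, the thromboxane receptor gene, fell by 1.69 (SE 0.16, adjusted p = 4.6e-08). PTGFRN, which encodes a partner protein of the prostaglandin F receptor, was lower with depletion by -0.70 ± 0.20 (adjusted p = 0.033).

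All 5 transport and inactivation genes beside HPGD were tested. In senescence edgeR called 0 (median -0.26, 2 at an unadjusted p under 0.05 and 1 called by DESeq2). With depletion 1 was lower (median 0.06), ZADH2 at -0.36 ± 0.11 (adjusted p = 0.045). SLCO2A1, an uptake transporter gene, had 79 counts over 4OHT_siNT and 15 over 4OHT_siSMARCA4. Its difference of -2.31 ± 0.76 was not called by edgeR (adjusted p = 0.056) and was called by DESeq2 (-2.42, adjusted p = 0.011). Of 7 lipoxygenase genes only 2 were tested. ALOX5AP, whose product presents arachidonic acid to 5-lipoxygenase, was higher in senescence by 3.25 ± 0.57 (adjusted p = 8.7e-05). It had 9 counts over the controls (at most 4 in a library) and 102 over 4OHT_siNT (1.24 ± 0.510 CPM). It thus passed the filter only through senescent libraries. ALOX5, the gene for 5-lipoxygenase itself, had 1 count over the controls, 0 over 4OHT_siNT and 0 over 4OHT_siSMARCA4.

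Cyclic AMP response genes were listed because EP2 and EP4 signal through cyclic AMP, although other signals also drive them. Of 10, 9 were tested, and 5 were higher and 1 lower in senescence (median 0.52), where 23.9% and 28.9% of all tested genes were, and 1 higher and 1 lower with depletion (median 0.10), where 4.99% and 5.65% were. AREG, which encodes the growth factor amphiregulin, rose from 4.19 ± 1.65 to 340 ± 42.0 CPM in senescence (6.35 ± 0.26, adjusted p = 5.5e-13), and its level in 4OHT_siSMARCA4 was 280 ± 72.7 CPM. NR4A3, PDE4B and PDE4D, a nuclear receptor and 2 phosphodiesterases that break down cyclic AMP, rose by 2.62 ± 0.20, 2.14 ± 0.19 and 2.04 ± 0.21 (adjusted p = 2.0e-09, 2.1e-08 and 1.1e-07). With depletion NR4A2 rose by 1.06 ± 0.24 (adjusted p = 0.0067) and PDE4B fell by 0.74 (SE 0.18, adjusted p = 0.013).

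**Figure D5:**
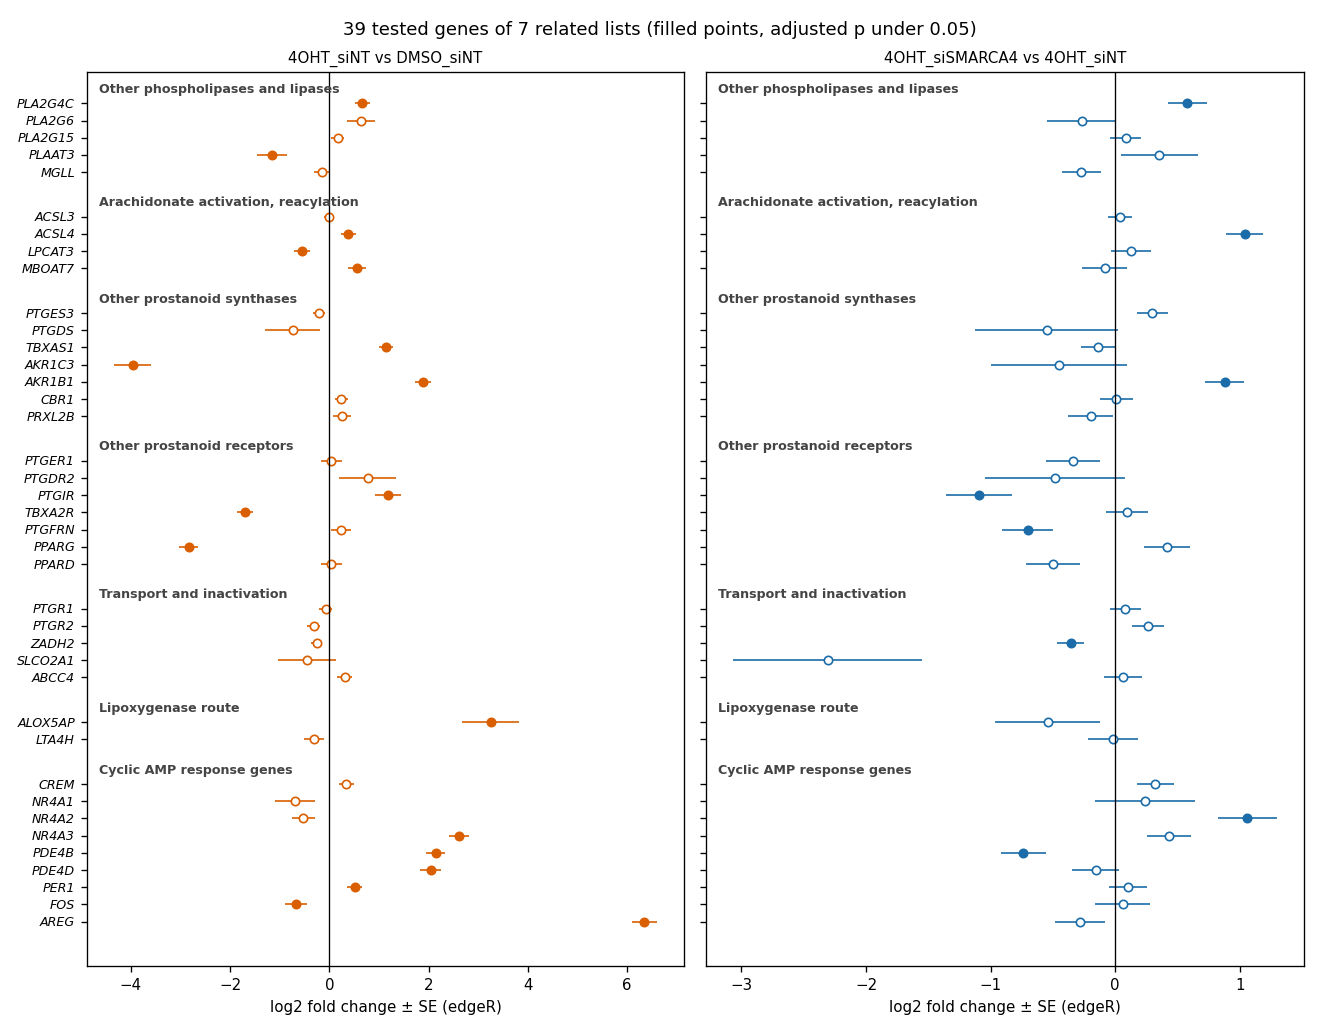
Log2 fold changes (horizontal, bars of 1 SE) of the 39 tested genes of 7 lists, for senescence on the left and SMARCA4 depletion on the right, with filled points at an adjusted p under 0.05. The horizontal scales differ. AREG lies furthest to the right on the left side, and AKR1B1, ACSL4, NR4A2 and PLA2G4C are filled to the right of 0 on the right side.

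Genes with the most similar profile were sought for PTGS2 and PTGES among 11513 other tested genes with a mean log2 CPM above 1, by the root mean square difference of centred log2 CPM over the 18 libraries. For PTGS2, whose own spread on this measure was 3.57, the 5 nearest were CSF2 (0.40), MMP3 (0.52), MMP10 (0.54), CCL20 (0.63) and BMP2 (0.67). CSF2, MMP10 and CCL20 were near the floor in the controls, at means of 0.381, 0.104 and 0.0675 CPM. Their control values on the log scale, and so their likeness, depend on the count of 2 added before the logarithm. MMP3 stood at a mean of 5.58, 755 and 2109 CPM in the 3 groups. For PTGES, with an own spread of 1.55, they were BIRC3 (0.46), C15orf48 (0.59), SOD2 (0.63), ALDH1A3 (0.69) and OSGIN2 (0.70), and BIRC3 stood at 6.65, 19.2 and 69.7 CPM. PLA2G4A ranked 131st by likeness to PTGS2 and 123rd by likeness to PTGES. The measure was not computed for PTGIS, which did not pass the filter.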

How the data were processed

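The table deposited by the authors holds read counts for each gene, without normalization, in 36 columns (1 for each library and sequencing lane) and 28266 rows of gene symbols. Per the labels and the study's methods, polyadenylated RNA was made into directional libraries, read as single 72-base reads and aligned with STAR 2.7.8a to hg38, and the processing notes also name DESeq2 1.36.0. The counting program, annotation and use of strand are not given in the sources used here. The 2 lanes were summed, which gave 18 libraries. Of 29 labelled samples 17 matched a column, 12 were not analysed here, and 1 library matched a group but no title.

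Genes were filtered with filterByExpr (minimum count 10), which kept 13136 genes and 99.9% of counts, scaled by TMM and tested in edgeR 4.0.16 (R 4.3.3, quasi-likelihood F test), all libraries in 1 fit without covariates, with Benjamini-Hochberg adjustment. SEs came from the F statistic. The fitting steps were tested on simulated data. Alternatives were DESeq2 1.42.0, other scaling and filters, set labels as a block, subsets of sets or siRNAs, and leaving out each library. Loci and lengths are from GENCODE 44 and promoter windows from RefSeq.

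The named genes are the 10 members, SMARCA4, up to 4 called genes per list and comparison (the largest differences), and the 5 nearest profiles to PTGS2 and PTGES. A few others are named where they bear on a locus, a label or a limit. Members and lists were chosen with earlier results of these data known. SIK1, which has a near-identical copy, was listed at 0 in all libraries.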

Additional observations from a re-analysis of the deposited data

Results flagged for a closer look

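In 27 sets (the 8 tested members and SMARCA4 in 3 groups of 6) the gap between an extreme library and its nearest neighbour was compared with the range of log2 CPM by Dixon's criterion, and 3 sets passed, where chance gives about 1.35. PLA2G4A in the DMSO_siNT library of siRNA 4, set 2V, was lowest (gap 0.895 of the range), at 7 counts and 0.837 CPM beside 2.55 to 2.91 CPM in the other 5. This is the library that stood apart from the rest, and without it the rise of PLA2G4A in senescence was 2.11 (adjusted p = 1.8e-07). PTGES2 in the 4OHT_siSMARCA4 library of siRNA 4, set 3V, was lowest (0.743), at 40.7 CPM beside 64.5 to 75.6, and without it the difference from 4OHT_siNT was -0.09 (adjusted p = 0.69). PTGFR in the 4OHT_siSMARCA4 library of siRNA 4, set 2V, was lowest (0.702), at 5.44 CPM beside 6.27 to 6.66, and without it the rise with depletion was 0.61 (adjusted p = 0.044). The causes were not tested.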

How the results depend on the processing

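For PTGS2, PTGER2, PTGER4 and PTGFR in senescence, and for PLA2G4A, PTGS1, PTGS2, PTGES and all 3 receptor genes between 4OHT_siSMARCA4 and DMSO_siNT, direction and call held in every fit that could be made, as did PLA2G4A in senescence. PTGES in senescence lost its call only with siRNA 2 alone. Between 4OHT_siSMARCA4 and 4OHT_siNT, PTGS2, PTGES and PTGS1 lost theirs only with siRNA 4 alone (1.33, 1.48 and -1.88), where edgeR called 4 genes and 0 members (6 at an unadjusted p under 0.05). That fit includes DMSO_siNT 4-2V, and without it (a fit chosen after seeing the data) 906 genes and 4 members were called.

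Counts of all genes called moved by over 1.5 times in these cases. Requiring a 2-fold difference as well gave 2822 in senescence, 461 with depletion (3 members) and 2820 for both together. For depletion the count of 1397 became 2858 among VM sets alone, 4064 with 4OHT_siSMARCA4 2-1VM, which has no sample title, added, 3405 with the compared groups alone and 3429 with siRNA 2 alone, and for both together siRNA 4 alone gave 4119. Leaving out single libraries gave 923 to 3269 genes for depletion, the highest without DMSO_siNT 4-2V and the lowest without 4OHT_siSMARCA4 2-1VM (931 without 4OHT_siSMARCA4 2-3VM), 6511 to 7734 in senescence and 6347 to 7850 for both together, with 4 to 6, 6 to 8 and 7 members called. The causes were not tested.

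Deviations of same-set libraries from their group means correlated from -0.29 to 0.30 (15 pairs, median 0.035). Those of libraries from different sets correlated from -0.30 to 0.29 (81 pairs, median 0.0011). The group means include DMSO_siNT 4-2V, so these values cannot decide whether the set labels pair the libraries. A fit that took these labels as a replicate block called 4356 genes in senescence, 236 with depletion and 4672 for both together, with 6, 4 and 7 members, and 6403, 1454 and 6305 with DMSO_siNT 4-2V left out (chosen after seeing the data). Under the block PTGS1 in senescence (-0.31) and PLA2G4A and PTGFR with depletion (0.99 and 0.78) were not called, nor was PTGS1 with that library also left out (-0.34) or with siRNA 4 alone and that library left out (-0.084).

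Signs turned only among values not called. With depletion PTGER4 was -0.23 under the block, -0.29 with DMSO_siNT 4-2V left out as well, -0.19 among VM sets alone, -0.030 with 4OHT_siSMARCA4 2-1VM added, and -0.084 and -0.067 with siRNA 4 alone with and without that control. PTGES2 with depletion was 0.042 under the block and 0.0093 with that library left out as well, and for both together -0.033 and -0.19 with siRNA 4 alone, with and without it. Between siNT 2 and siNT 4 in DMSO_siNT, PTGS2 was -0.00078 and PTGER2 -0.0046 under RLE size factors, PTGER2 -0.0047 by DESeq2 and PTGES2 0.0052 with total counts alone. With total counts alone PTGES2 was 0.033 between siNT 2 and siNT 4 in 4OHT, and PLA2G4A -0.023 for the difference of depletion between siRNAs.

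PTGFR with depletion was also not called with RLE size factors (0.57), with every gene of at least 1 count (0.60) or with at least 10 counts in every library (0.56), and the last filter removed PLA2G4A. At 7 to 40 counts of PLA2G4A and 20 to 38 of PTGS2 in each control, depth limits the control level, and HPGD and PTGIS in senescent cells lie at or below the limit of 3 counts.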
